A study of Mus musculus with 6 samples.

Results

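The genes described here encode the proteins that clot blood and dissolve clots, measured in livers of mice with a conditional p14 knockout and of controls. The members are 34 genes chosen by name: clotting factors, their inhibitors, the enzymes of fibrinolysis, regulators on the endothelium and the cargo receptor that carries factors V and VIII out of the endoplasmic reticulum. Of these, 33 were found among the 18193 genes that the array annotation pairs with a probe set of their own. A single-gene probe set for Cpb2, the fibrinolysis inhibitor carboxypeptidase B2, was not analysed here. Where a gene had several probe sets, the one with the highest mean over all 6 arrays was used.

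Livers of male C57BL/6 mice aged 6 weeks were measured on Affymetrix arrays, 1 array per mouse, with 3 mice per group and each mouse a biological replicate per the labels. KO mice carry a conditional knockout of p14 in the liver, and WT mice are controls whose genotype is given as p14 WT. The sources used here do not give the promoter that drives the deletion or the cells in which it acts. The p14 protein is the product of Lamtor2, a scaffold of the Ragulator complex on late endosomes.

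Clotting runs as a cascade of plasma proteases. Tissue factor on cells outside the vessel lining binds factor VII and starts it, thrombin then turns fibrinogen into fibrin, and plasmin later cuts fibrin apart. Hepatocytes secrete most of these proteins, whereas von Willebrand factor, factor VIII and the anticoagulant receptor thrombomodulin come mainly from endothelial cells. In the liver, some of the factors made by hepatocytes are also acute-phase proteins, whose synthesis changes during inflammation.

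Values are log2 expression levels, so a difference of 1 is a doubling, and every difference is KO minus WT. On the 6 arrays between 9942 and 10122 genes had a value of at least 4, the level required here on at least 3 arrays for a gene to be tested. Lamtor2 measured 10.08, 10.19 and 10.11 in KO and 11.32, 11.29 and 11.35 in WT, a difference of -1.19, or 43.8% of the WT signal (limma adjusted p = 0.0104). The labels do not say whether these probes fall inside the region that was removed. Across genes, KO 3 was as close to the WT arrays (mean r 0.987) as to its own group (0.986). WT 2 held skeletal muscle transcripts, with Acta1 at 13.72 against 2.32 to 3.25 on the other arrays. Signal of the controls for 18S rRNA exceeded WT by 0.80, and the 3 prime minus 5 prime signal of pyruvate carboxylase, a measure of RNA integrity, was 3.51 to 3.58 in KO and 3.99 to 4.85 in WT. The part of these measures in the results below was not tested. Hepatocyte markers such as Alb, Apoa1 and Ttr averaged 14.51 to 14.73 in KO livers and 14.41 to 14.62 in WT livers, and all 10 of them were tested. Of 10 stellate cell and fibroblast markers 9 had lower means in KO and the median difference was -0.36, while 5848 of all 10009 genes tested were lower. Their mean level spanned 8.36 to 8.83 in KO and 8.78 to 9.23 in WT.

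Most clotting genes that hepatocytes express differed little between KO and WT livers. The 2 members that passed the test act at the cell surface, where clotting starts and is held back. Among 28 members tested, F3, which encodes tissue factor, rose and Thbd, which encodes thrombomodulin, fell at a Benjamini-Hochberg adjusted p under 0.05 in limma. Each of these calls was lost in 9 of the alternative settings given below and kept in 7. In all 10009 genes tested, 0.170% were called, 0.0200% higher and 0.150% lower. All genes tested had a median difference of -0.04, with 4161 higher and 5848 lower. The 28 members had a median difference of 0.03, with 16 higher and 12 lower. Centring each array on its median made this split 21 higher and 7 lower. For 23 of them, or 82.1%, the difference was within 0.25, compared with 74.1% of all genes. Among genes with a KO mean of at least 10 this held for 20 of 22 members, or 90.9%, and for 83.2% of all genes. Arrays of the groups did not overlap for 5 members, or 17.9%, which is near the 20.5% of all genes. F3 and Proc were higher on all KO arrays, where 6.54% of all genes were, and Thbd, Vwf and Mcfd2 were lower, as were 14% of all genes (1400 of 10009). An unadjusted limma p under 0.05 was seen for 4 members, F3, Thbd, Vwf and Mcfd2, and for 14.5% of all genes.

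**Figure D1:**
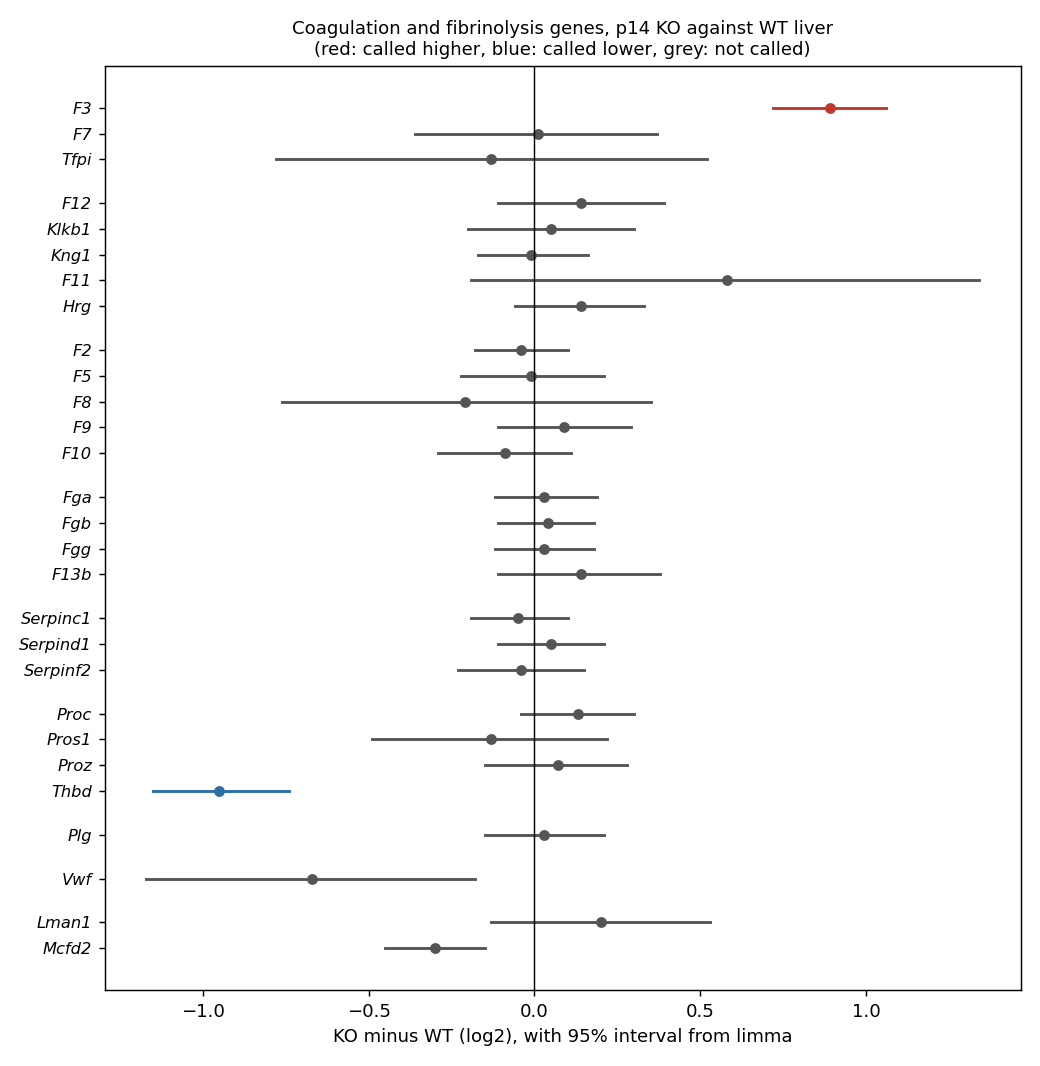
Difference between KO and WT livers (log2, x axis) for the 28 members tested, grouped by role; points are fitted differences and bars 95% intervals from limma, with n = 3 arrays per group. F3 at 0.89 and Thbd at -0.95 lie furthest from 0, and the fibrinogen genes lie within 0.04 of it.

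The other 5 members with a probe set lay below the level required for a test, so no difference can be given for them. Plau, the urokinase activator of plasminogen, was listed at 2.18 on every array, the lowest value in the table, and its receptor Plaur at 3.61 on every array. Plat, the tissue activator of plasminogen, measured 2.39 to 2.61. F13a1, the catalytic chain of the fibrin-crosslinking factor XIII, measured 2.19 to 2.86, with the highest value on WT 2. Procr, the endothelial receptor of protein C, measured 3.83, 3.83 and 3.99 in KO and 4.55, 4.42 and 3.96 in WT. Of these 5 genes only Procr reached 4 on any array, on WT 1 and WT 2.

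Tissue factor is the receptor that starts clotting when blood meets cells outside the vessel. F3 measured 5.63, 5.82 and 5.73 on KO 1 to KO 3, and 4.84, 4.83 and 4.85 on WT 1 to WT 3. Every KO array was higher than every WT array. The means were 5.73 ± 0.09 and 4.84 ± 0.01 (SD, 3 arrays each), a difference of 0.89 with a 95% interval of 0.72 to 1.06, or 1.85-fold (limma adjusted p = 0.0275). The WT arrays of F3 spanned only 0.016, whereas the median span of the WT arrays was 0.29 among the 1504 genes with a WT mean between 4 and 6. A span of at most 0.03 was seen for 181 of these genes, or 12%, so F3 shares its narrow WT spread with other dim probe sets. Whether the WT values of F3 lie above background was not tested, which limits its fold and its small WT SD. With 1 array left out the difference of F3 stayed between 0.84 and 0.93, and its limma adjusted p ranged from 0.0324 to 0.16. The call was kept without KO 3 and lost without KO 1, KO 2, WT 1, WT 2 or WT 3, and without KO 3 and WT 2 together the difference was 0.88 (limma adjusted p = 0.148).

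The promoter of F3 is shown because F3 was the member called higher. The 250 bases before its annotated start lie at chr3:121723287-121723536 on the plus strand (RefSeq, GRCm38.p6). Capitals mark matches to the AP-1 motif TGANTCA, the SP1 motif GGGCGG, the STAT motif TTCNNNGAA, the partial HNF1 site GTTAAT or TATAAA, searched on both strands.
F3: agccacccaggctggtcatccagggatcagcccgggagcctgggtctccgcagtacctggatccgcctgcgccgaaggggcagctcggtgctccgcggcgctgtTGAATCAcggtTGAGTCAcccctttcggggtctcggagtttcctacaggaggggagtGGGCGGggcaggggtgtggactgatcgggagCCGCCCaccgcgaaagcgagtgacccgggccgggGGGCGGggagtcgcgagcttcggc
The 2 AP-1 matches start at -146 and -135, where -1 is the last base before the start, and 3 SP1 matches start at -89, -58 and -24. None of the marked matches overlap. Over all 32851 promoter windows of this length, 6.75% held the AP-1 motif and 32.7% the SP1 motif, and among the 28 windows of 26 members 6 and 7 did. A match describes the letters of the window and does not show that a factor binds there.

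The partners of tissue factor did not pass the test. F7, the protease it binds, measured 12.20, 12.49 and 12.13 in KO and 12.36, 12.02 and 12.40 in WT, a difference of 0.01 with an interval of -0.36 to 0.37. Tfpi, the inhibitor of the tissue factor complex, measured 6.44, 6.93 and 7.42 in KO against 6.83, 7.12 and 7.23 in WT. Its KO arrays spread on either side of the WT arrays, and the interval of the difference ran from -0.78 to 0.52. The 3 further probe sets of Tfpi differed by -0.35, -0.24 and 0.13, and so did not share a direction. The related inhibitor Tfpi2 differed by -0.15.

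Thrombomodulin sits on endothelial cells, binds thrombin and turns it from a clotting enzyme into the activator of protein C. Thbd measured 4.97, 5.01 and 5.11 in KO and 6.09, 5.87 and 5.97 in WT. All 3 KO arrays were lower than all 3 WT arrays. The means were 5.03 ± 0.07 and 5.98 ± 0.11 (SD, 3 arrays each). The KO signal was thus 51.9% of that in WT, a difference of -0.95 with an interval of -1.15 to -0.74 (limma adjusted p = 0.0353). Whether the KO values of Thbd lie above background was not tested, which limits the size of this difference. With 1 array left out the difference of Thbd stayed between -1.0 and -0.89, and its limma adjusted p ranged from 0.0324 to 0.171. As for F3, the call was kept without KO 3 and lost without any other single array, and without KO 3 and WT 2 together the difference was -1.04 (limma adjusted p = 0.124).

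Endothelial markers were mostly lower as well. Of 15 tested, 13 had a negative difference, the median was -0.33, and 1 fell by the test, the hyaluronan receptor Lyve1 at -1.32 (limma adjusted p = 0.0353). Over all 10009 genes, 5848 had a negative difference and 0.150% were called lower. Their mean level spanned 8.24 to 8.59 in KO and 8.79 to 8.89 in WT, and Cd34 lay below 4 on every array. Fewer endothelial cells and less RNA per cell cannot be told apart in whole liver, and the part of the endothelial share in the difference of Thbd was not tested. The marker mean was 8.24, 8.43 and 8.59 on KO 1, KO 2 and KO 3, where Thbd measured 4.97, 5.01 and 5.11. On WT 1, WT 2 and WT 3 it was 8.81, 8.79 and 8.89, where Thbd measured 6.09, 5.87 and 5.97. The order of the arrays was thus shared in KO and not in WT.

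Von Willebrand factor carries factor VIII in plasma and tethers platelets to injured vessels. Vwf measured 6.22, 6.71 and 6.07 in KO and 7.23, 6.79 and 7.0 in WT. The groups did not overlap, although KO 2 came close to WT 2. Its difference of -0.67, with an interval of -1.17 to -0.18, did not pass over all genes (limma adjusted p = 0.277). Without KO 3 the difference of Vwf was -0.54 and without KO 2 it was -0.86. Of the 15 endothelial markers tested, 13 were lower and 2 higher, with a median of -0.33. Their part in the difference of Vwf was not tested. Platelets also hold von Willebrand factor. Of 8 platelet markers with a probe set, 7 did not reach the level for a test, and Itga2b, Gp9 and Gp1bb lay at 2.18 to 2.21 on every array. Ppbp reached 5.16 on WT 1 and 4.72 on WT 3. Pf4 was the platelet marker tested, at 6.08 to 6.53 in KO and 6.31 to 6.78 in WT.

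Factor VIII, the cofactor missing in haemophilia A, measured 7.82, 8.44 and 8.58 in KO and 8.48, 8.29 and 8.69 in WT for F8. KO 1 was below all other arrays, and KO 2 and KO 3 lay among the WT arrays. The difference was -0.21 with an interval of -0.76 to 0.35, and it was 0.02 without KO 1. KO 1 also had the lowest means of endothelial and macrophage markers. Macrophage markers averaged 8.62 on KO 1, at most 9.83 on the other KO arrays and 10.10 to 10.25 in WT. All 14 were lower, with 0 called in limma and 10 at an unadjusted p under 0.05, and their part in the values of F8 was not tested. Over all 10009 genes, 5848 were lower, 0.170% were called and 14.5% had an unadjusted limma p under 0.05.

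**Figure D2:**
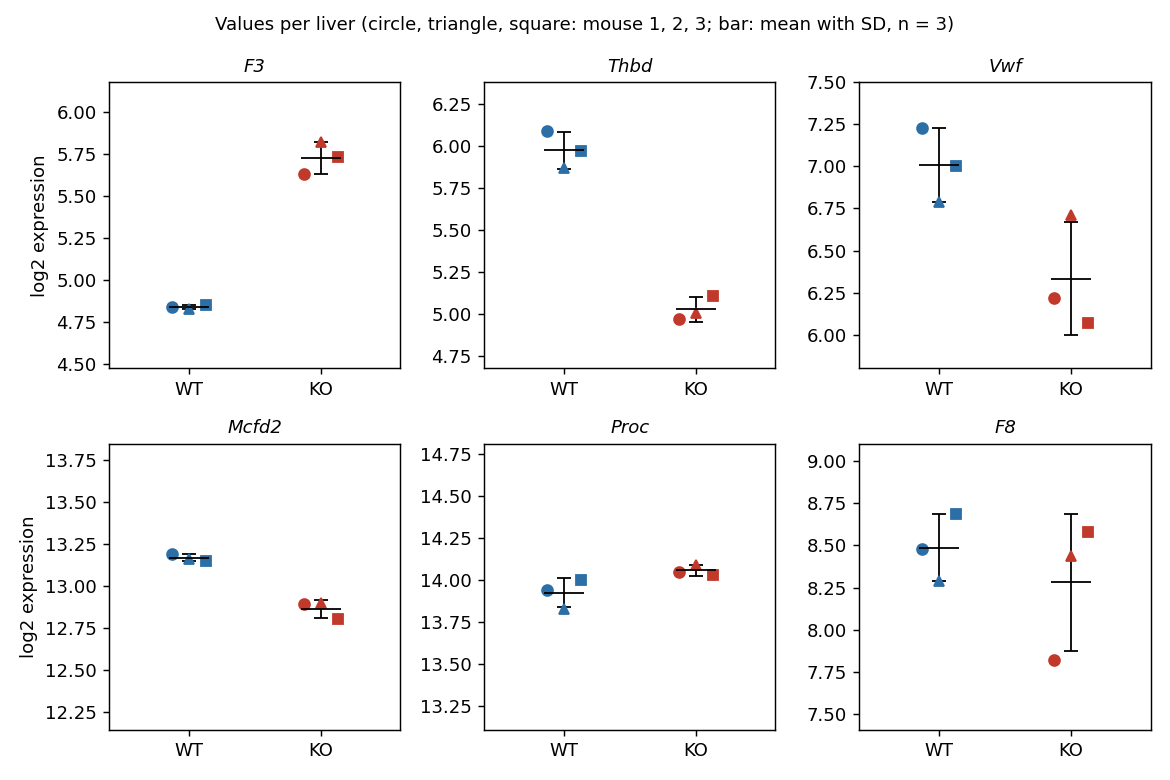
Log2 expression on each array for the 5 members whose groups did not overlap and for F8; symbols are single mice, horizontal bars means and error bars SD (n = 3), and every panel spans the same log2 range. F3 is higher and Thbd, Vwf and Mcfd2 are lower on all KO arrays, with smaller gaps for Vwf, Mcfd2 and Proc, while the F8 arrays overlap.

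Of the plasma proteins grouped here with the protein C pathway, no member passed. Proc, the zymogen that thrombomodulin activates, measured 14.05, 14.09 and 14.03 in KO, against 13.94 on WT 1 and 13.83 on WT 2. WT 3 lay just below KO 3, so the groups did not overlap, yet the difference of 0.13 had an interval of -0.04 to 0.30 (limma adjusted p = 0.409). Pros1, the cofactor protein S, differed by -0.13, with 9.40 on KO 3 and 9.77 to 9.90 on the other arrays. Proz, the cofactor of an inhibitor of factor X, differed by 0.07, and Serpina10, which encodes that inhibitor, measured 13.64 to 13.85 in KO and 13.60 to 13.76 in WT.

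The cascade factors that thrombin generation depends on showed small differences of either sign. Prothrombin, from F2, measured 15.11, 15.20 and 15.16 in KO and 15.23, 15.18 and 15.19 in WT. The difference was -0.04 with an interval of -0.18 to 0.10. F5, the cofactor of factor X, measured 13.49, 13.57 and 13.38 in KO and 13.61, 13.39 and 13.47 in WT, with an interval of -0.22 to 0.21. A further probe set of F5 differed by 0.08. F9, whose protease activates factor X, and F10, whose protease turns prothrombin into thrombin, differed by 0.09 and -0.09, and the further probe sets of F10 by 0.00 and 0.08. The intervals of F9 and F10 reached 0.29 and -0.29, and those of F2 and F5 stayed inside that range.

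Fibrinogen is the substrate of thrombin and in rodents a strong acute-phase protein. Fga measured 15.64, 15.60 and 15.71 in KO and 15.57, 15.63 and 15.64 in WT. Fgb measured 15.62, 15.60 and 15.69 against 15.58, 15.60 and 15.63, and Fgg 15.72, 15.65 and 15.68 against 15.60, 15.67 and 15.70. KO and WT arrays overlapped for all 3 chains, with differences of 0.03, 0.04 and 0.03 and intervals that reached at most 0.19. Values in the table ended at 16.327, so these probe sets lie near the top of the scale, as do those of F2, Kng1, Serpinc1 and Plg. Whether differences are made smaller there was not tested. F13b, the carrier chain of factor XIII, measured 13.39 to 13.45 in KO and 13.16 to 13.48 in WT.

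Acute-phase genes were high on KO 1 and KO 2. Their list mean was 14.03 and 13.92 on these arrays, while KO 3, at 12.38, lay within the WT span of 12.29 to 12.56. Saa1, a serum amyloid, measured 15.83, 15.78 and 12.22 in KO and 12.03, 11.67 and 10.83 in WT, and its probes may also bind the close paralog Saa2. Of 16 genes tested in that list 15 were higher in KO, 0 were called in limma and 5 had an unadjusted p under 0.05. Over all 10009 genes, 4161 were higher, 0.170% were called and 14.5% had an unadjusted limma p under 0.05. The part of the acute-phase state in the values of the members was not tested. Among the 6 arrays, Fga and Fgb were highest on KO 3 and Fgg on KO 1.

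The promoters of Fga and Fgb are shown because both hold the letters of a STAT site, the motif of the factor that acts downstream of IL-6. The fibrinogen genes follow each other on chromosome 3 in the order Fgg, Fga and Fgb. The windows lie at chr3:83025903-83026152 on the plus strand for Fga and at chr3:83049864-83050113 on the minus strand for Fgb (RefSeq, GRCm38.p6), with capitals as for F3.
Fga: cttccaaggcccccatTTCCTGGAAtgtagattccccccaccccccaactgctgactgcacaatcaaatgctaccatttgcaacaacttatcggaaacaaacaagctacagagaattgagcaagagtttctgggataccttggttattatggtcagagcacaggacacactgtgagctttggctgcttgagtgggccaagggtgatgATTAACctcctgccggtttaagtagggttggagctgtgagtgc
Fgb: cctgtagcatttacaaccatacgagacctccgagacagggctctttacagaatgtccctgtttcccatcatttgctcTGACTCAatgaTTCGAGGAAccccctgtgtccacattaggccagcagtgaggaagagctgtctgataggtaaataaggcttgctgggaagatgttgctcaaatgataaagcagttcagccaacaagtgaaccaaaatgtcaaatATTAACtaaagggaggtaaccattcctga
The STAT match starts at -234 in Fga and at -162 in Fgb, and a partial HNF1 site on the other strand at -43 and -29. Of all windows 7.02% held the STAT motif and 6.43% the partial HNF1 site, and 4 member windows held each. The window of Fgg held neither. A looser C/EBP motif, TTNCNNAA, which is not capitalised and can overlap the others, was in the windows of Fga and Fgb and in 36.8% of all windows.

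The contact system, which starts clotting at charged surfaces and releases bradykinin, held the member with the widest spread among KO mice. F11, the protease factor XI, measured 11.72, 11.83 and 10.75 in KO and 10.73, 10.74 and 11.11 in WT. KO 1 and KO 2 were above every other array and KO 3 lay within the WT range, so the groups overlapped. The difference of 0.58 had an interval of -0.19 to 1.34 (limma adjusted p = 0.424). Hrg, only grouped here with the contact genes, encodes the histidine-rich glycoprotein that binds plasminogen and heparin. It measured 15.06, 15.08 and 14.86 in KO and 14.86, 14.86 and 14.87 in WT, so KO 1 and KO 2 were again the highest arrays. KO 1 and KO 2 are the arrays with the high acute-phase values given above, whose part in F11 and Hrg was not tested.

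The contact genes other than F11 differed by at most 0.14. F12, whose product starts the contact pathway, measured 13.06 to 13.33 in KO and 12.92 to 13.13 in WT. Klkb1, prekallikrein and the neighbour of F11 on chromosome 8, measured 12.77, 12.85 and 12.55 in KO and 12.73, 12.57 and 12.71 in WT. Kng1, the kininogen that carries prekallikrein and factor XI in plasma, differed by -0.01, and its further probe set by -0.02. Probes of Kng1 may share targets with its close paralog Kng2.

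**Figure D3:**
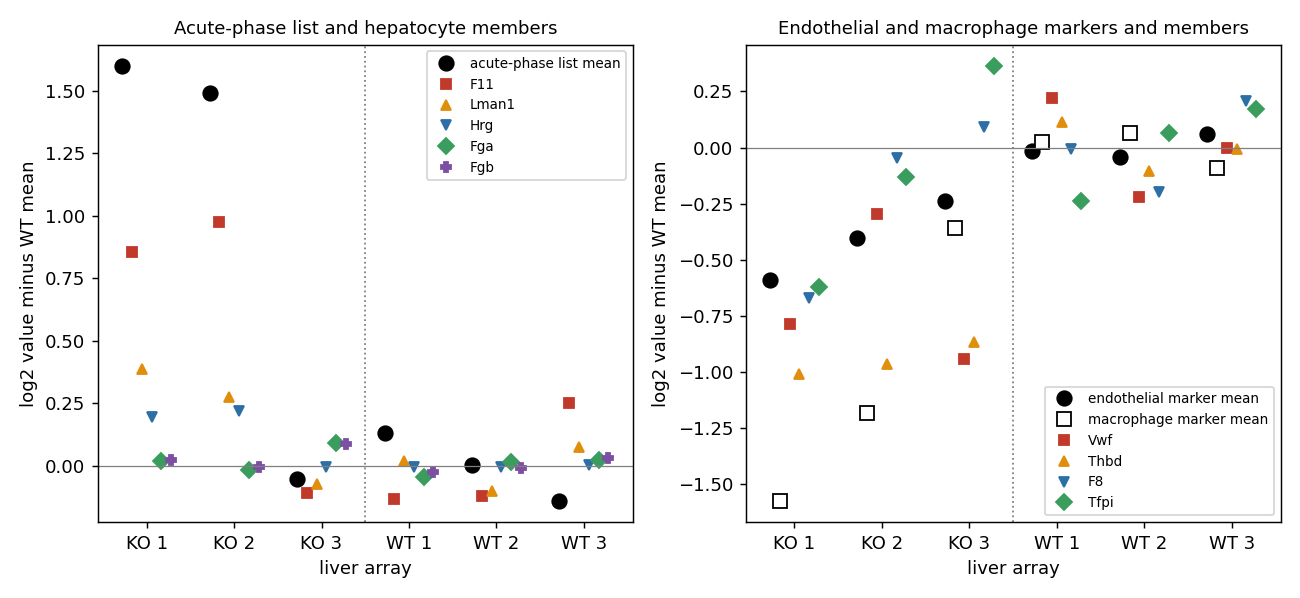
Log2 value minus the WT mean on each array, left for the acute-phase list mean with F11, Lman1, Hrg, Fga and Fgb, right for the endothelial and macrophage marker means with Vwf, Thbd, F8 and Tfpi. On KO 1 and KO 2 the acute-phase mean and F11 are high while Fga and Fgb stay near 0, and Thbd is low on all KO arrays.

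Inhibitors and the fibrinolytic substrate stayed close to the WT level, with Serpinc1 and Plg near the top of the scale. Serpinc1, antithrombin, measured 15.48, 15.56 and 15.59 in KO and 15.59 on each WT array. Serpind1, heparin cofactor II, differed by 0.05, and Serpinf2, the inhibitor of plasmin, by -0.04. Plg, plasminogen, measured 15.36, 15.41 and 15.27 in KO and 15.40, 15.27 and 15.27 in WT, a difference of 0.03 with an interval of -0.15 to 0.21. No member of these roles passed the test, and all 4 intervals lay within 0.25 of 0.

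Factors V and VIII leave the endoplasmic reticulum with a receptor made of the lectin Lman1 and its partner Mcfd2. Mcfd2 measured 12.89, 12.90 and 12.80 in KO and 13.19, 13.16 and 13.15 in WT. Every KO array was lower, and the difference of -0.30 had an interval of -0.45 to -0.15, but it did not pass over all genes (limma adjusted p = 0.192). At 81.1% of the WT signal this was a small difference between arrays that varied little within each group, with SDs of 0.05 and 0.02.

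Lman1 did not share that direction. It measured 12.82, 12.71 and 12.36 in KO and 12.45, 12.34 and 12.51 in WT, a difference of 0.20 with an interval of -0.13 to 0.53. A further probe set of Lman1 had all KO arrays above the WT arrays, at 10.84, 10.72 and 10.75 against 10.09, 10.58 and 10.19. The other 3 differed by 0.13, -0.90 and 0.02, the last with values of 5.42 to 5.51 on every array. The probe set at -0.90 spread widely and overlapped, at 8.84, 6.08 and 7.08 in KO and 7.94, 7.77 and 8.99 in WT. It was the only probe set of Lman1 with a negative difference. Whether Lman1 and Mcfd2 differ from each other was not tested.

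**Figure D4:**
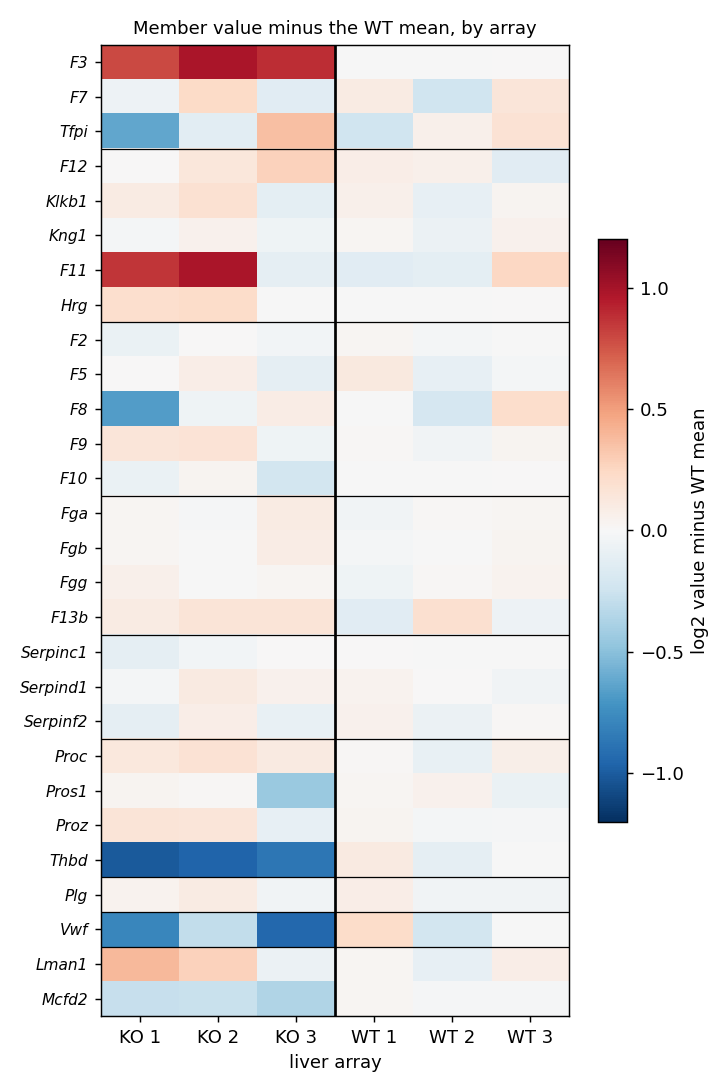
Log2 value minus the WT mean (colour) for the 28 members tested on each of the 6 arrays, in rows by role separated by lines. F3, Thbd, Vwf and Mcfd2 keep one colour over the KO arrays, F11 is high on KO 1 and KO 2 only, and the fibrinogen rows are nearly white.

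Other genes of the same pathways were taken from lists by role. Of the 27 tested, 0 were called in limma and 9 had an unadjusted p under 0.05, while 0.170% and 14.5% of all genes did. Among 11 genes of export from the endoplasmic reticulum, 9 were higher in KO, with a median of 0.11, while 4161 of all 10009 genes were higher. Sec24d, a cargo adaptor of the vesicle coat, measured 10.68, 10.45 and 10.36 in KO and 9.67, 10.08 and 9.92 in WT (limma adjusted p = 0.208). Its groups did not overlap, as for 20.5% of all genes. Sec24a differed by 0.24 and Sec23b by 0.45. Surf4, another cargo receptor, measured 11.35 to 11.73 in KO and 11.39 to 11.67 in WT.

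Anxa2, which binds plasminogen and its activator at the cell surface, measured 8.55, 8.68 and 9.10 in KO and 9.67, 9.63 and 9.73 in WT. All KO arrays were lower, as for 14% of all genes, and the difference was -0.90 with an interval of -1.27 to -0.53 (limma adjusted p = 0.138). Its partner S100a10 measured 11.91 to 12.23 in KO and 11.93 to 12.39 in WT. Habp2, a protease that acts on factor VII, differed by 0.43, and Fgl1, a fibrinogen-like protein of hepatocytes, measured 14.54, 14.36 and 13.20 in KO against 13.21 to 13.46 in WT. Of 6 genes in that list 4 were lower, as were 5848 of all 10009 genes.

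Carboxylation with vitamin K gives factors II, VII, IX and X, and proteins C, S and Z, their calcium-binding residues. Ggcx, the carboxylase, measured 9.38, 9.44 and 9.46 in KO and 9.07, 9.30 and 9.26 in WT, a difference of 0.22. Its groups did not overlap, as for 20.5% of all genes. Vkorc1l1, a paralog of the vitamin K reductase, differed by 0.20, and Nqo1, a quinone reductase, by -0.74. Vkorc1, the reductase that warfarin blocks, measured 13.76 to 13.83 in KO and 13.71 to 13.84 in WT. Of 5 further protease inhibitors tested, 4 were higher, as were 4161 of all 10009 genes. Mug1, a murinoglobulin of the macroglobulin family, differed by 0.48, Serping1, the C1 inhibitor that holds back the contact system, by 0.18, and Pzp by 0.05. Of the thrombin receptors only F2r was tested, at 10.61 to 11.17 in KO and 10.41 to 11.23 in WT.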

How the data were processed

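The authors deposited log2 expression values per probe set, and the submitters' processing notes name GCRMA 2.16.0 and R 2.9.1. GCRMA corrects background by probe sequence, normalises across arrays and summarises probe sets. That the scale is log2 was read from the values, which run from 2.185 to 16.327, with 28.9% at the lowest value.

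Of 45101 probe sets, 64 were manufacturer controls, 34945 had a single gene symbol, 932 several and 9160 none listed. A gene was tested where 3 or more of the 6 arrays reached a log2 value of 4, which kept 10009 genes and left out 8184. The 3 KO and 3 WT arrays were compared by two-sided moderated tests without covariates (limma 3.58.1, R 4.3.3), with Benjamini-Hochberg adjustment over all genes tested and a threshold of 0.05. The procedure was tested on simulated data with 50 genes changed at each fold. It recovered 39.8% of them at 1.5-fold, 71% at 2-fold and 95.3% at 4-fold, and 5.2% of its calls were false. The simulated noise was drawn independently for each gene, which real livers need not follow.

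The members and lists were chosen with earlier results of these data known, F3 and Thbd among them. Named with values per array were members called, with an unadjusted p under 0.05 or without overlap, and representatives of each role. Further lists gave up to 3 genes with the smallest p; others named from them, such as Surf4, Tfpi2, Serpina10, S100a10 and Acta1, were chosen after their values were seen, as was the choice of promoters to show. Promoter windows came from RefSeq (GRCm38.p6) and were available for 26 of the 34 genes. Alternatives changed the filter, normalisation, lowest values, probe set choice, variance model, array weights, block and arrays. The number of arrays limits the precision. Figures used matplotlib 3.10.9.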

Additional observations from a re-analysis of the deposited data

How the results depend on the processing

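The count of 2 members called, F3 and Thbd, stayed at 2 with quantile normalisation, median centring, values floored at 4, averaged probe sets, an intensity trend with robust variance, and array weights. It was 0 with no filter on dim probe sets, with a filter at 6 (where F3 and Thbd were not tested), with an ordinary two-sample test, with the replicate block and without KO 3 and WT 2, and it ranged from 0 to 2 with 1 array left out. F3 and Thbd each kept their direction under the 16 alternatives that tested them and lost the call in 9. With no filter their limma adjusted p was 0.097 and 0.148, and with the replicate block 0.212 and 0.216. Over all genes the count of 17 was 3 with no filter, 10 with the filter at 6, 3 with the ordinary test, 0 with the replicate block and 3 without KO 3 and WT 2, and ranged from 1 to 140 with 1 array left out: 140 without KO 3, 6 without KO 1, 5 without WT 3 and 1 without KO 2, WT 1 or WT 2. The labels name no shared litter or day that would pair mice by replicate number. Deviations of same-numbered arrays correlated at -0.086, -0.079 and -0.141, which with 3 arrays per group cannot exclude a pairing. The cause of these changes in count was not tested, apart from the smaller number of arrays or genes that an alternative holds by construction. Differences never called changed sign near 0. With median centring they were 0.03 for F2, 0.06 for F5 and 0.02 for Serpinc1, and with the mean of probe sets 0.03 for F5. With 1 array left out they ranged from -0.36 to 0.02 for F8 and from -0.06 to 0.05 for F5, from -0.0006 to 0.07 for Plg and from -0.0006 to 0.05 for Fgg. The median over members was -0.006 without KO 2 and 0.095 with median centring, a setting under which 21 of 28 members were higher. The median of all genes was -0.037 as deposited and 0.029 with median centring. Signal over background limits F13a1, Plat, Plau, Plaur and Procr. It may also limit F3, whose WT arrays read 4.84, 4.83 and 4.85, and Thbd, whose KO arrays read 4.97, 5.01 and 5.11.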

Other observations

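Among 10 transcription factors tested that are known to act on the genes of tissue factor or thrombomodulin, 8 had lower means in KO. Their median difference was -0.43, and 5848 of all 10009 genes tested were lower. In limma 0 were called and 3 had an unadjusted p under 0.05, while 0.170% and 14.5% of all genes did. Klf4 and Klf2, factors that raise thrombomodulin in endothelial cells, were lower on every KO array, as were 14% of all genes. Klf4 measured 3.70, 3.81 and 3.62 in KO and 4.70, 5.73 and 4.96 in WT. It reached 4 on the WT arrays only, so it passed the filter through the group where it was higher. The lower KO values of Klf4 and its place in the counts above were therefore favoured by the filter. Klf2 measured 6.86, 6.88 and 7.63 in KO against 8.35, 7.94 and 7.94 in WT (limma adjusted p = 0.243). Endothelial markers, with a median of -0.33, were lower between the same groups, and their part in these values was not tested. Jun, a subunit of AP-1, measured 6.92, 5.98 and 7.34 in KO and 7.43, 7.83 and 7.84 in WT, and was not called (limma adjusted p = 0.328). Fosl2 differed by -0.46, Jund by -0.23 and Junb by 0.20, and Egr1 spread from 5.05 on KO 1 to 9.53 on KO 2.

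Of 13 liver transcription factors tested 9 had lower means in KO and the median difference was -0.17, while 5848 of all 10009 genes tested were lower. In limma 0 were called and 4 had an unadjusted p under 0.05, while 0.170% and 14.5% of all genes did. Cebpa, a factor of hepatocyte identity, measured 12.83, 12.82 and 12.83 in KO and 13.25, 12.95 and 13.22 in WT. Foxa3 differed by -0.62 and Stat5b by -0.26, both without overlap of the groups, as for 20.5% of all genes. Stat3, the factor downstream of IL-6, differed by -0.09, and Cebpb, another factor of the acute phase, by 0.28.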
